A study of Homo sapiens with 7 samples.

Results

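A group of 35 genes was at least 2.5 times higher in every KD library than in every parent library of MDA-MB-231 cells. A gene was chosen where both KD libraries had at least 2 CPM (a gene's count divided by its library's total, times 1000000) and the lower KD value was at least 2.5 times the highest parent value. Of the 57773 genes in the deposited count table, 44 met these conditions. VTN, VCAM1, OLR1, CDH11, ADAM12, SSX1, DUSP9, ELF3 and RTN4RL1 were set aside by name, which left the 35 members. The members were thus chosen by their KD and parent levels, so their differences are described here without a test. No member could overlap between the groups, so that separation is not a result.

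MDA-MB-231 is an established human breast cancer cell line of the triple-negative kind, with a mesenchymal character. RNA-seq was made from 2 libraries labelled KD and 3 libraries labelled parent, with 14677006 and 15502425 counts in KD and 14601078 to 18049386 counts in parent. The labels do not spell out KD, and the treatment protocol speaks of APE1-knockout cells that received APE1 or mutants of it on a doxycycline-inducible lentiviral vector. They give neither which libraries carried that vector or doxycycline, nor whether KD is 1 clone, nor whether replicates came from separate cultures. Each p-value therefore reflects only how much these libraries vary, which could be technical variation.

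APE1, the product of APEX1, repairs abasic sites in DNA and also changes the redox state of transcription factors. The series' title concerns its interaction with G-quadruplexes, which are stacked guanine structures that can form in guanine-rich promoters. The 35 members do not form a single pathway: they include enzymes of hormone and amino acid metabolism, surface peptidases and receptors, secreted and cytoskeletal proteins, and loci with little or no known function.

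APEX1 was lower in KD, at 43.6 and 48.6 CPM in the KD libraries against 122, 133 and 134 CPM in the parent libraries (log2 fold change -1.51, edgeR quasi-likelihood test with Benjamini-Hochberg adjustment, adjusted p = 5.87e-05). The line's markers VIM, CD44, AXL and CAV1 were above 380 CPM in every library, although CD44 and AXL were called lower in KD (log2 fold change -0.34 and -0.32, edgeR adjusted p = 0.00951 and 0.0296). FOSL1, also of this check, had 102 and 148 CPM in KD, against 286, 305 and 375 CPM in parent (-1.39, edgeR adjusted p = 0.00245). The epithelial gene CDH1 had 8.72 and 6.77 CPM in KD, against 3.71, 3.77 and 2.99 CPM in parent (log2 fold change 1.13, edgeR adjusted p = 0.00587). KRT8 and ERBB2, listed in this check as low, were not low. KRT8 had 675 and 679 CPM in KD, against 573, 581 and 568 CPM in parent (0.22, edgeR adjusted p = 0.0125). ERBB2 had 167 and 158 CPM in KD, against 143, 123 and 131 CPM in parent (0.28, edgeR adjusted p = 0.0426). EPCAM, at 8.58 to 13.1 CPM, did not pass the test (-0.34, edgeR adjusted p = 0.121). ESR1 was at 0, and PGR had 2 counts in parent replicate 2 and 0 elsewhere. SPARC, also a mesenchymal marker of this check, was low in both groups and is itself a member. Of 15 markers of leukocytes, endothelium, fibroblasts and neural cells, 9 were under 1 CPM in all libraries, 6 of them at 0, among which were PTPRC, CD3E, VWF, DCN and SOX2. Their summed level was 161 to 174 CPM in KD and 142 to 173 CPM in parent, and 4 of the 15 passed the edgeR test, PDGFRB upwards in KD and CD14, NES and TUBB3 downwards. Their part in the members' differences was not tested. In bulk RNA, more cells with a transcript and more RNA per cell cannot be told apart.

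Together the members held 0.0786% and 0.0795% of the counts in the KD libraries, against 0.0192%, 0.0187% and 0.0193% in the parent libraries. DIO2, ASS1, CPA4 and FAM83A took 67.2% of the members' counts in KD and 71.5% in parent. CPM is not divided by gene length, so it orders no gene above another in transcripts per cell. The fold of mean KD over mean parent CPM had a median of 4.36 over the members, from 2.79 for CTD-2532K18.2 to 37.8 for AC010547.9, with the member at 0 in parent left out. It was over 5 in 14 members. In parent, 14 members averaged under 1 CPM, 17 lay between 1 and 10 CPM, and 4 were above 10 CPM. All 35 passed the filter on low counts and the edgeR threshold upwards, where 9.15% of the 16198 tested genes did so. The members' log2 fold change had a median of 2.09, and that over all tested genes was 0.00. Both KD libraries lay above all 3 parent libraries in 27.5% of tested genes, and the conditions of the choice were met by 0.272%. The choice used this contrast, so nothing is read from these counts. In the authors' deposited table all 35 log2 fold changes were positive, from 1.46 to 8.40. It compares the same KD and parent libraries, so these signs follow from the choice.

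**Figure D1:**
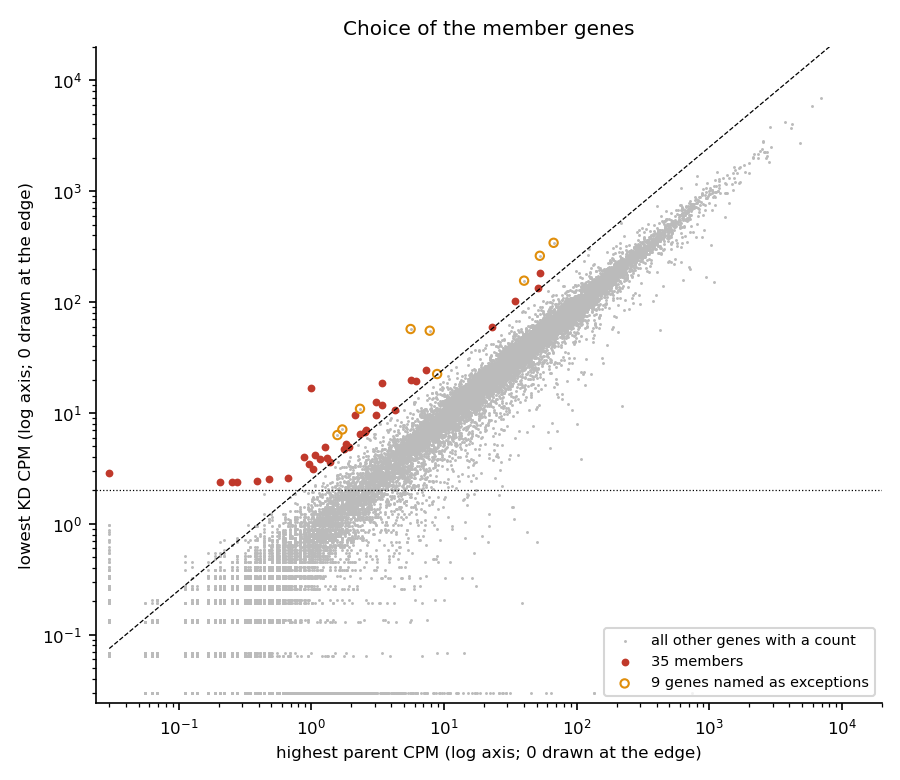
Each point is a gene with a count, placed by its highest parent CPM (x, log axis) and its lowest KD CPM (y, log axis); the dashed line is a ratio of 2.5, the dotted line 2 CPM, red points are the 35 members and open circles the 9 genes set aside by name. The members run from the lower left, where parent is near 0, to DIO2 and ASS1 above 100 CPM in KD, and no gene sits on the upper side of both lines without being a member or a named exception.

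The edge of the group was not a gap. CTD-2532K18.2, GDF5 and FAM83A lay just inside the ratio of 2.5, at 2.51, 2.56 and 2.59. Just outside were KIAA1462, which encodes a protein of endothelial junctions, at 2.44, the zinc finger gene ZNF287 at 2.42, and EPAS1, a hypoxia-inducible factor, at 2.42. EPAS1 had 547 and 517 CPM in KD, against 214, 186 and 189 CPM in parent. KIAA1462 had 303 and 319 CPM in KD, against 119, 119 and 124 CPM in parent. On the level condition, SSX8, RP11-732A19.8 and AC010547.9 lay just inside with a lower KD value of 2.38, 2.39 and 2.39 CPM. SPTBN4, ISLR2 and PROX2 met the ratio and missed the level, at 1.84, 1.74 and 1.23 CPM.

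**Figure D2:**
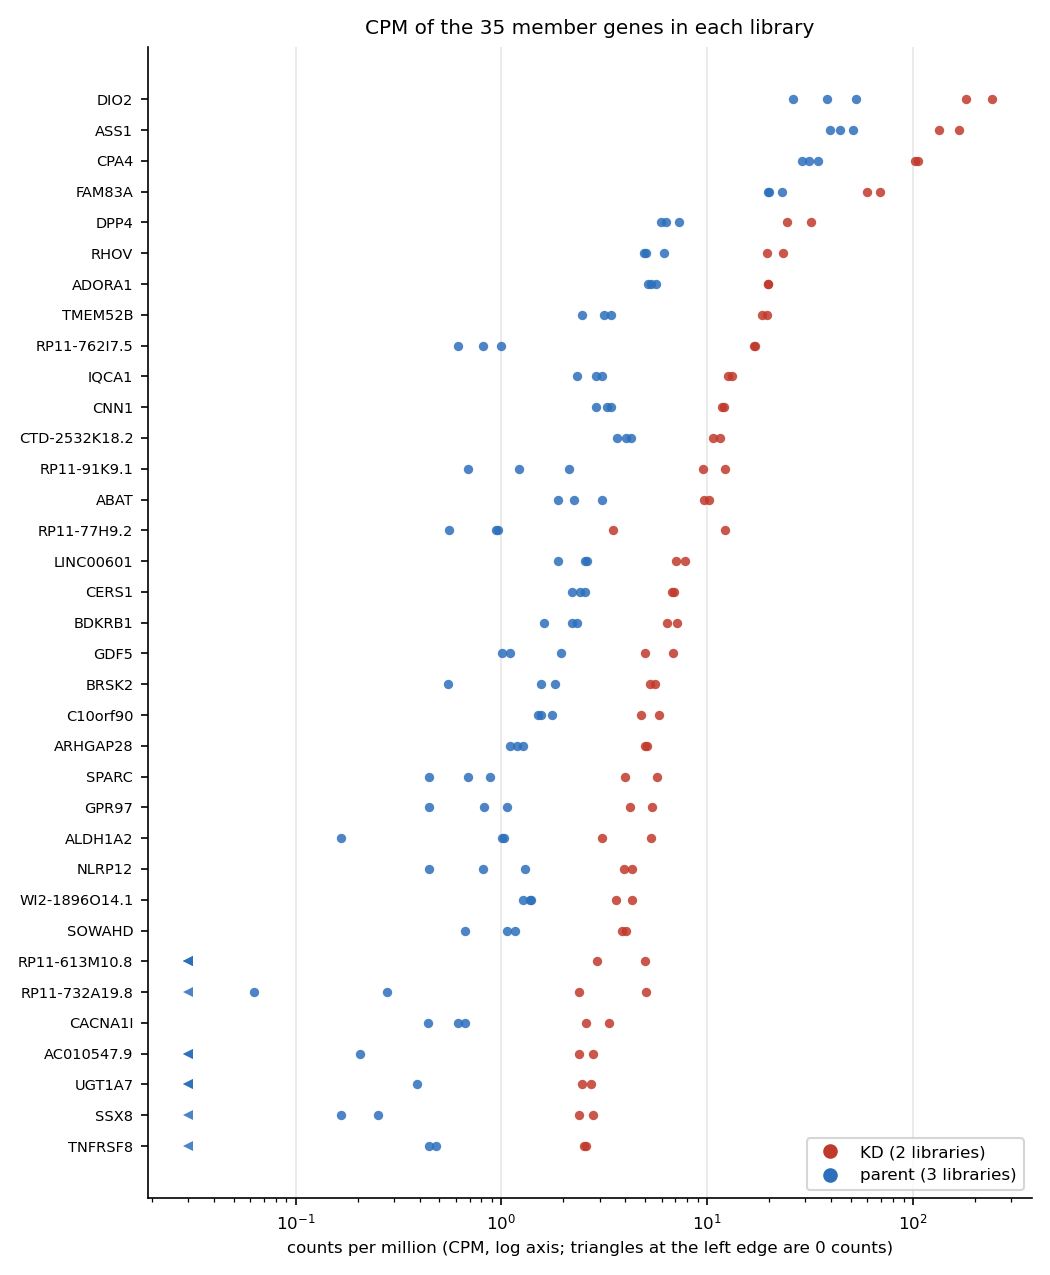
Each row is 1 of the 35 members and each point 1 library, with CPM on a log axis and values of 0 drawn at the left edge; KD libraries are red and parent libraries blue. In every row both red points lie right of all blue points, as the choice requires, and the distance between the red points is widest for RP11-77H9.2.

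The 2 KD libraries were close in most members. The choice needed a high value in both, so it favours genes with such closeness, and no value over all tested genes is given here. The higher KD value was within 1.25 times the lower in 23 of 35 members, with a median of 1.15. KD replicate 1 was the higher in 20 members and KD replicate 2 in 15. Only 4 members differed by more than 1.5 times between the KD libraries. RP11-77H9.2 was 3.51 times higher in KD replicate 2, while RP11-732A19.8, ALDH1A2 and RP11-613M10.8 were 2.11, 1.72 and 1.71 times higher in KD replicate 1.

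The promoters of 6 members are printed here because they hold the motifs described next. RefSeq promoter windows (GRCh38.p14, 250 bases before to 50 after a start) matched 24 of the 35 members. Each line runs 5′ to 3′ on the gene's strand, from 200 bases before the annotated start to the start base. In DIO2, ASS1 and CACNA1I, capitals mark 4 runs of GGG or longer separated by 1 to 7 bases. In DIO2 they lie on the opposite strand and are read as runs of CCC. Further runs of CCC stand in lower case just before the capitals of DIO2, so its tract is longer than the marked part.
DIO2, chr14:80211504-80211704, minus strand: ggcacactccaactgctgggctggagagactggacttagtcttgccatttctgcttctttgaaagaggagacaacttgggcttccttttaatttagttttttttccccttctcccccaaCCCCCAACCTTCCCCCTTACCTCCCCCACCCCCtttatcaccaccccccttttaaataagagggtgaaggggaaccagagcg
ASS1, chr9:130444761-130444961, plus strand: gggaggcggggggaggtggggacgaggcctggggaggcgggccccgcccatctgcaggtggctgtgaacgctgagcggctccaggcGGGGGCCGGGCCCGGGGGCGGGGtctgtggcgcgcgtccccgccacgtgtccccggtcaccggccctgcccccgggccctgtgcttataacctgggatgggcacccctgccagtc
CACNA1I, chr22:39570553-39570753, plus strand: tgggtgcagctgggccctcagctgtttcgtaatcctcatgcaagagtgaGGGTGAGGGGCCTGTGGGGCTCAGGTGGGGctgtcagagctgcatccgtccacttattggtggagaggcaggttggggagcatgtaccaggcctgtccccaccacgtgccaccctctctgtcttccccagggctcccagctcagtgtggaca
In CPA4, LINC00601 and C10orf90, capitals mark TGANTCA, the letters of the site that AP-1 (dimers of FOS and JUN proteins) is known to bind, searched on both strands.
CPA4, chr7:130292961-130293161, plus strand: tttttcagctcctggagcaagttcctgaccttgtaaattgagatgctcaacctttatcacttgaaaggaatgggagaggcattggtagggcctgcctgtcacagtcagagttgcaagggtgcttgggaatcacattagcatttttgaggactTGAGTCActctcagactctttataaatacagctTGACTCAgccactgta
LINC00601, chr10:126421879-126422079, minus strand: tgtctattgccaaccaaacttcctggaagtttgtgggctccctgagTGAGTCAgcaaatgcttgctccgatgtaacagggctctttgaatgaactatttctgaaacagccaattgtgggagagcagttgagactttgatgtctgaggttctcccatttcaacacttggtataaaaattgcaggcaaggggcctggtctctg
C10orf90, chr10:126521441-126521641, minus strand: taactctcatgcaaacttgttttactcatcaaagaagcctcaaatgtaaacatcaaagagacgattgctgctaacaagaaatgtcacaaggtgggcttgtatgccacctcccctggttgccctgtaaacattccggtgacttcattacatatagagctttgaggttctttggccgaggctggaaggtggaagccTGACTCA
The capitals of ASS1 run from 114 to 92 bases before the start, those of CACNA1I from 151 to 122 and those of DIO2 from 81 to 49. CPA4 holds 2 matches of TGANTCA in its last 48 bases before the start, and the match in C10orf90 ends on the start base.

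Runs of guanine were no more frequent in members than in expressed genes. Of the 24 members with a window, 8 (33.3%) held 4 runs of GGG on either strand: ABAT, ASS1, BRSK2, CACNA1I, CERS1, DIO2, IQCA1 and SOWAHD. The share was 41.1% over 11149 tested genes and 27.9% over all 27305 genes of the RefSeq promoter table. TGANTCA was present in 6 members (25%), namely BRSK2, C10orf90, CPA4, DIO2, LINC00601 and TNFRSF8, against 7.21% of tested genes and 9.37% of all genes. Among AP-1 subunits, chosen after their values were seen, FOSL1 was lower in KD by the values already given, as were JUN (log2 fold change -0.24, edgeR adjusted p = 0.0150; 0.116 without KD replicate 1 and 0.0860 without KD replicate 2) and JUNB (-0.55, edgeR adjusted p = 0.0430; 0.0635 to 0.204 with no filter or on leaving out parent replicate 1, parent replicate 2 or KD replicate 2). FOSL2 did not pass the test (edgeR adjusted p = 0.658). The part of these subunits in the members' levels was not tested. TATAAA, the letters of a TATA box, was present in ARHGAP28, CPA4, DIO2 and LINC00601 (16.7%), against 8.48% of tested genes and 14% of all. None of these letter strings contains another. Member windows held a median of 11 CpG dinucleotides, against 25 in tested genes and 14 in all genes, and their median GC content was 59.0%, against 64.7% and 58.3%. These are descriptions of letters in a window of 300 bases, with no test, and no binding was measured in these libraries.

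**Figure D3:**
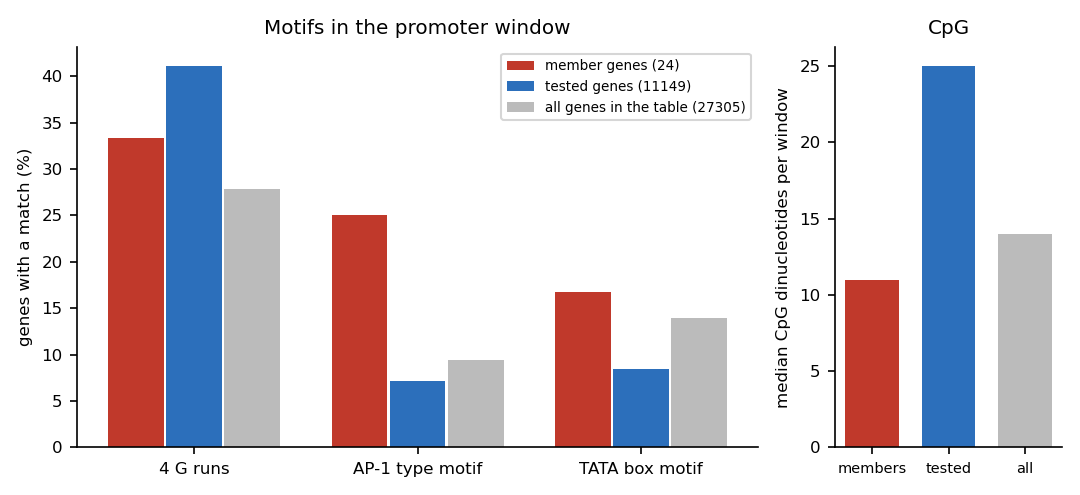
Left, the percentage of genes whose promoter window holds each motif on either strand; right, the median number of CpG dinucleotides per window. Red bars are the 24 members with a window, blue bars the 11149 tested genes and grey bars all 27305 genes of the RefSeq table; the red bar is below the blue for G runs (33.3% and 41.1%) and CpG (11 and 25), and above it for the other motifs.

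Among the members with a role in hormone and vitamin signalling, DIO2 (ENSG00000211448) encodes the selenoenzyme that converts thyroxine into the active thyroid hormone. It had 181 and 242 CPM in KD, against 26.2, 38.4 and 53.0 CPM in parent, a 5.40-fold difference of means. The parent libraries themselves spread widely. ALDH1A2 (ENSG00000128918), which makes retinoic acid from retinaldehyde, had 5.31 and 3.10 CPM in KD, against 1.01, 1.03 and 0.166 CPM in parent. Its KD libraries differed and its parent values rest on 16, 15 and 3 counts. A list of 19 other tested genes of retinoic acid and thyroid hormone handling or response, TIMP1 among them, had 5 called higher and 2 lower. Its median log2 fold change was 0.07. Including DIO2 and ALDH1A2 (higher by the choice), 33.3% of the list was higher and 9.52% lower, against 9.15% and 12.4% of all tested genes. A share with members counted in, here and below, is raised by the choice of members. STRA6, the cell-surface receptor for retinol-binding protein, averaged 10.2 ± 2.97 CPM in KD and 3.01 ± 0.605 CPM in parent (log2 fold change 1.73, edgeR adjusted p = 0.00327). Also higher, and chosen after their values were seen, were the thyroid hormone receptor THRB (0.93, edgeR adjusted p = 0.00763), the retinoid X receptor RXRA (0.24, 0.0219) and RARRES3 (0.75, 0.0145). The 2 lower ones were KLF9 and RARG. Without KD replicate 1 the count of higher genes was 3, with RXRA and RARRES3 at adjusted p = 0.156 and 0.0949. The count of lower genes was 0 or 1 under most alternatives, including 0 with DESeq2. ALDH1A3, a second retinaldehyde dehydrogenase, averaged 33.1 ± 1.79 CPM in KD and 33.5 ± 1.35 CPM in parent and did not pass the test (edgeR adjusted p = 0.741).

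Members of amino acid and lipid metabolism were ASS1, ABAT, CERS1 and UGT1A7. ASS1 (ENSG00000130707), argininosuccinate synthase, makes the precursor of arginine from citrulline and aspartate. It had 168 and 134 CPM in KD, against 50.9, 44.0 and 39.4 CPM in parent, a 3.37-fold difference of means. KD replicate 2 was the lower KD library, at 2.63 times the highest parent library. ASL, which takes the next step to arginine, averaged 27.1 ± 3.62 CPM in KD and 25.7 ± 0.792 CPM in parent, which did not pass the test (log2 fold change 0.05, edgeR adjusted p = 0.734; chosen after its values were seen). ABAT, the transaminase that breaks down GABA, had 9.61 and 10.2 CPM in KD, against 3.08, 2.26 and 1.88 CPM in parent. CERS1, a ceramide synthase, had 6.75 and 6.90 CPM in KD, against 2.20, 2.40 and 2.55 CPM in parent. Both had KD libraries that were close to each other. CERS1 overlaps GDF1, so its reads are uncertain between them, and GDF1 itself had 0 counts in all libraries but parent replicate 3, with 5. Of the other ceramide synthases, chosen after their values were seen, CERS6 fell to 30.6 ± 0.714 CPM in KD, against 63.1 ± 1.30 CPM in parent (log2 fold change -1.06, edgeR adjusted p = 0.000125). CERS2, CERS4 and CERS5 did not pass the test. UGT1A7, a glucuronosyltransferase, had 40 and 38 counts in KD, against 0, 0 and 7 counts in parent, which is 2.73 and 2.45 CPM in KD. The genes of the UGT1A locus share their last exons, so how its reads were divided is uncertain. Chosen after their values were seen, UGT1A4, UGT1A6 and UGT1A8 were at 0.503 CPM or less in every library.

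Among the secreted and surface peptidases, CPA4 (ENSG00000128510), a secreted carboxypeptidase, had 103 and 106 CPM in KD, against 34.5, 31.4 and 28.8 CPM in parent. Its KD libraries differed little, and the fold of means was 3.31. DPP4 (ENSG00000197635), also called CD26, is a membrane peptidase that trims dipeptides from chemokines and incretin hormones. It had 32.0 and 24.5 CPM in KD, against 7.30, 5.96 and 6.32 CPM in parent, a 4.33-fold difference of means. Other members of the DPP family, chosen after their values were seen, moved less and in either direction. DPP7 averaged 81.9 ± 2.32 CPM in KD and 65.4 ± 3.20 CPM in parent, higher in KD (log2 fold change 0.31, edgeR adjusted p = 0.0230; 0.120, 0.0646 and 0.0765 on leaving out KD replicate 1, KD replicate 2 and parent replicate 2). DPP9 averaged 170 ± 0.400 CPM in KD and 207 ± 5.49 CPM in parent, lower in KD (log2 fold change -0.30, edgeR adjusted p = 0.00599; 0.0561 without KD replicate 1 and 0.0587 without KD replicate 2). DPP3 and DPP8 did not pass the test (edgeR adjusted p = 0.627 and 0.0586).

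Signalling adaptors, kinases and small GTPases among the members were FAM83A, RHOV, ARHGAP28 and BRSK2. FAM83A (ENSG00000147689), a protein linked to growth factor receptor and RAS signalling in breast cancer cells, had 68.8 and 59.6 CPM in KD, against 23.0, 19.9 and 19.8 CPM in parent. Its ratio of 2.59 was among the 3 nearest the limit. FAM83H averaged 43.9 ± 6.24 CPM in KD and 29.3 ± 0.807 CPM in parent (log2 fold change 0.56, edgeR adjusted p = 0.00708), while FAM83D and FAM83G did not pass the test. These relatives were chosen after their values were seen. RHOV (ENSG00000104140), an atypical small GTPase, had 23.2 and 19.6 CPM in KD, against 6.17, 4.93 and 5.04 CPM in parent. ARHGAP28, a GTPase-activating protein, had 5.11 and 4.97 CPM in KD, against 1.20, 1.10 and 1.27 CPM in parent. Both groups of values were tight for ARHGAP28 and the fold of means was 4.24. BRSK2, a kinase known from neuronal polarity, had 5.59 and 5.29 CPM in KD, against 1.82, 0.548 and 1.55 CPM in parent. Parent replicate 2, with 8 counts, was the lowest parent library. Its relative BRSK1, chosen after its values were seen, fell to 5.94 ± 0.652 CPM in KD, against 10.01 ± 1.18 CPM in parent (adjusted p by edgeR = 0.0134; 0.0768 without KD replicate 2 and 0.0538 without parent replicate 2). Of 134 other tested regulators of small GTPases and RGS proteins, 13 were higher and 36 lower in KD and had a median log2 fold change of -0.05. Leaving out KD replicate 1, KD replicate 2 or parent replicate 2 left 6 higher genes among the 134 each time. ARHGAP22, another GTPase-activating protein, fell to 10.7 ± 0.0404 CPM in KD, against 43.5 ± 0.498 CPM in parent (adjusted p by edgeR = 1.28e-05). DOCK4, an exchange factor for Rac, fell to 7.44 ± 0.696 CPM in KD, against 26.9 ± 0.712 CPM in parent (adjusted p by edgeR = 6.39e-05).

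Receptors and channels made up a further group. ADORA1 (ENSG00000163485), the A1 adenosine receptor, had 19.7 and 19.8 CPM in KD, against 5.66, 5.14 and 5.32 CPM in parent. The libraries within each group were nearly equal, and the fold of means was 3.68. ADORA2B, another adenosine receptor, averaged 68.4 ± 8.41 CPM in KD and 47.6 ± 1.98 CPM in parent (log2 fold change 0.50, edgeR adjusted p = 0.00856; chosen after its values were seen). GPR97, an adhesion receptor known from granulocytes, had 5.38 and 4.19 CPM in KD, against 1.07, 0.822 and 0.443 CPM in parent. BDKRB1, the B1 bradykinin receptor, had 6.40 and 7.16 CPM in KD, against 2.33, 2.19 and 1.61 CPM in parent. Of 94 other tested genes listed as G protein-coupled receptors, 16 were higher and 25 lower. The median log2 fold change of the 94 was 0.00. The list was filled by gene symbol, so not all of its genes, such as GPR108 among the higher ones, are established receptors. With ADORA1, GPR97 and BDKRB1 (higher by the choice), 19.6% were higher and 25.8% lower, against 9.15% and 12.4% of all tested genes. The higher count among the 94 was 6, 9 and 6 without KD replicate 1, KD replicate 2 and parent replicate 2. GPR116, an adhesion receptor, was lower: it averaged 231 ± 0.349 CPM in KD and 499 ± 18.8 CPM in parent (adjusted p by edgeR = 4.39e-05).

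CACNA1I, the pore subunit of a T-type calcium channel, had 3.34 and 2.58 CPM in KD, against 0.441, 0.616 and 0.665 CPM in parent. The parent values rest on 7, 9 and 12 counts. Among 87 other tested genes listed as channel subunits, 8 were higher and 23 lower in KD. The median log2 fold change of the 87 was -0.15. The list was filled by gene symbol and counts GRINA, which is not itself a channel subunit, among the higher genes. Including CACNA1I (higher by the choice), 10.2% were higher and 26.1% lower, against 9.15% and 12.4% of all tested genes. The higher count among the 87 was 1 on leaving out KD replicate 1 or parent replicate 2, 3 without parent replicate 3 and 4 without KD replicate 2. KCNS3, a potassium channel subunit, was at 0 in both KD libraries and averaged 10.6 ± 1.46 CPM in parent (adjusted p by edgeR = 0.000119).

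Members known from immune cells were TNFRSF8 and NLRP12, beside GPR97 and DPP4. TNFRSF8, the receptor CD30, had 37 and 40 counts in KD, against 0, 7 and 8 counts in parent, and its ratio of 5.26 was among the 12 highest. NLRP12, a NOD-like receptor known from myeloid cells, had 3.95 and 4.32 CPM in KD, against 0.818, 1.30 and 0.443 CPM in parent. Of the leukocyte markers, PTPRC and CD3E were at 0 in all 5 libraries, while CD14, a marker of myeloid cells, had 5.66 and 4.64 CPM in KD, against 9.69, 8.56 and 6.81 CPM in parent. Relatives of NLRP12, chosen after their values were seen, moved in either direction. NLRP2 averaged 39.1 ± 0.925 CPM in KD and 31.9 ± 0.688 CPM in parent (log2 fold change 0.27, edgeR adjusted p = 0.0195; 0.0634 with DESeq2, and 0.0552 to 0.135 with no filter or without KD replicate 1, KD replicate 2 or parent replicate 2). NLRP1 and NLRP7 did not pass the test (edgeR adjusted p = 0.996 and 0.301). NLRP3 fell to 0.798 ± 0.125 CPM in KD, against 2.13 ± 0.410 CPM in parent (adjusted p by edgeR = 0.0149; 0.0598 without KD replicate 1 and 0.0919 without KD replicate 2).

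The secreted and matrix members were GDF5 and SPARC. GDF5, a ligand of the bone morphogenetic protein family that acts in joint formation, had 4.97 and 6.84 CPM in KD, against 1.01, 1.10 and 1.94 CPM in parent. Parent replicate 3 was the highest parent library, and the ratio to the lowest KD library was 2.56. Of 22 other tested ligands, antagonists and targets of TGF-beta and BMP signalling, 7 were higher and 5 lower and had a median log2 fold change of 0.14. Counting GDF5 (higher by the choice) too, 34.8% were higher and 21.7% lower, against 9.15% and 12.4% of all tested genes. Apart from GDF5, the higher genes were BAMBI, BMP1, FSTL1, ID1, ID3, INHBA and TGFB2, and the lower ones BMP4, FST, ID2, NOG and SMAD9. TGFB2 averaged 404 ± 11.8 CPM in KD and 221 ± 4.74 CPM in parent (log2 fold change 0.85, edgeR adjusted p = 9.53e-05). INHBA, the subunit of activin A, averaged 195 ± 6.77 CPM in KD and 91.9 ± 6.42 CPM in parent (log2 fold change 1.06, edgeR adjusted p = 0.000176). The count of higher genes was 4 without KD replicate 1. SPARC, a collagen-binding protein of the matrix, had 5.72 and 4.00 CPM in KD, against 0.881, 0.685 and 0.443 CPM in parent. These are 84 and 62 counts in KD and 14, 10 and 8 counts in parent. Of 83 other tested matrix genes, 17 were higher and 15 lower, with a median of 0.06, and 11 were higher without KD replicate 1. With SPARC (higher by the choice) counted in, 21.4% were higher and 17.9% lower, against the same 9.15% and 12.4%. CTGF, a matricellular protein, fell to 23.4 ± 0.155 CPM in KD, against 109 ± 3.79 CPM in parent (adjusted p by edgeR = 1.17e-05). NOV, of the same CCN family, fell to 1.86 ± 0.166 CPM in KD, against 14.7 ± 0.191 CPM in parent (4.19e-05).

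Cytoskeletal and membrane members were CNN1, IQCA1 and TMEM52B. CNN1 (ENSG00000130176), calponin of smooth muscle, had 12.1 and 11.8 CPM in KD, against 2.89, 3.42 and 3.27 CPM in parent, a 3.73-fold difference. The KD libraries were nearly equal. Of 21 other tested genes listed as muscle genes, 5 were higher (CKB, MYL9, MYLK, TAGLN and TPM1) and 4 lower. The median log2 fold change of the 21 was -0.05. CKB is the brain-type creatine kinase and is not particular to muscle. Including CNN1 (higher by the choice), 27.3% were higher and 18.2% lower, against 9.15% and 12.4% of all tested genes. TAGLN, an actin-binding protein of smooth muscle, averaged 43.4 ± 2.91 CPM in KD and 26.2 ± 0.443 CPM in parent (log2 fold change 0.71, edgeR adjusted p = 0.000663). MYLK, myosin light chain kinase, averaged 250.8 ± 14.4 CPM in KD and 177 ± 8.05 CPM in parent (log2 fold change 0.48, edgeR adjusted p = 0.00254). The higher count was 2 without either KD replicate and 3 without parent replicate 2 or 3, and the lower count was 1 or 2 without any single library or with no filter. IQCA1 (ENSG00000132321), an ATPase related to the regulatory complex of motile cilia, had 13.1 and 12.6 CPM in KD, against 3.08, 2.88 and 2.33 CPM in parent. TMEM52B (ENSG00000165685), a membrane protein of little-known function, had 18.5 and 19.5 CPM in KD, against 2.45, 3.42 and 3.16 CPM in parent. For both genes the KD libraries agreed closely, and the folds of means were 4.67 and 6.31.

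**Figure D4:**
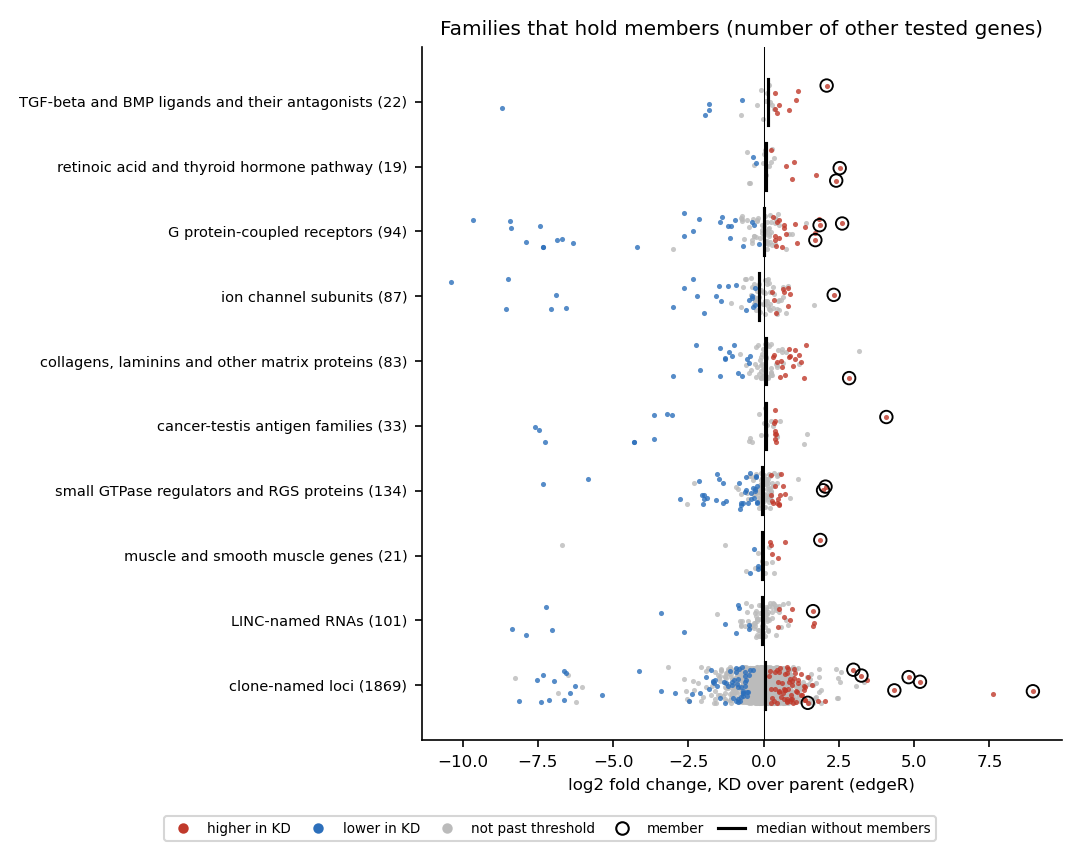
Each point is a tested gene of a family that holds at least 1 member, with its log2 fold change of KD over parent on the x axis; red and blue are genes past the edgeR threshold upwards and downwards, circles are members, vertical bars are medians without members, and the 9 exceptions are left out. The medians lie between -0.15 and 0.14. The circled members lie to the right of most of their families, which follows from the choice.

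Some members belong to families of testis and of non-coding transcripts. SSX8, which RefSeq lists as the transcribed pseudogene SSX8P of a cancer-testis family, had 35 and 43 counts in KD, against 4, 0 and 3 counts in parent. Its reads could be shared with near-identical SSX copies: SSX1, set aside by name, had 57.2 and 63.9 CPM in KD, against 5.601, 5.21 and 4.93 CPM in parent. SSX3, also chosen after its values were seen, had 8 counts in each KD library, against 0, 0 and 2 counts in parent. Of 33 other tested genes listed as cancer-testis genes, 8 were higher and 9 lower. The median log2 fold change of the 33 was 0.07, and 2 were higher without KD replicate 1. The higher ones were CTAGE5, TEX2, TEX261 and XAGE1A to XAGE1E. XAGE1A to XAGE1E had log2 fold changes of 0.37 each, and SPANXA1 and SPANXA2 -3.65 each. Such copies are counted here as separate genes. Counting SSX8 and SSX1 (higher by the choice) too, 28.6% were higher and 25.7% lower, against 9.15% and 12.4% of all tested genes. SPANXB2 and SPANXB1, near-identical copies, were lower in KD at 1.60 ± 0.249 CPM each, against 31.3 ± 2.07 and 31.2 ± 2.04 CPM in parent (adjusted p by edgeR = 1.17e-05 each).

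Of the 35 members, 8 carry clone names, and 7 of these had no match in RefSeq. RP11-762I7.5 had 17.0 CPM in each KD library, against 0.818, 0.616 and 0.997 CPM in parent. The KD libraries were equal to 3 digits, and the ratio of the lowest KD to the highest parent library was 17.0. RP11-91K9.1, which RefSeq names LINC02015, had 12.3 and 9.55 CPM in KD, against 2.14, 0.685 and 1.22 CPM in parent. CTD-2532K18.2 had 11.6 and 10.6 CPM in KD, against 4.03, 4.25 and 3.66 CPM in parent. RP11-613M10.8 had 73 and 45 counts in KD, against 0 in all 3 parent libraries. It was thus at least 63.7-fold higher in KD, taking 3 counts over the parent group (0.0618 CPM) as the floor, which covers counting error only. RP11-732A19.8 had 74 and 37 counts in KD, against 1, 0 and 5 counts in parent. AC010547.9 had 41 and 37 counts in KD, against 0, 3 and 0 counts in parent. Scaled by the library totals, the ratio of its summed counts was 41.8, with an exact 95% counting interval of 13.8 to 207. The parent values of RP11-732A19.8 and AC010547.9 rest on at most 5 counts a library. RP11-77H9.2 had 3.47 and 12.2 CPM in KD, against 0.944, 0.959 and 0.554 CPM in parent, so its mean rests mainly on KD replicate 2. WI2-1896O14.1 had 4.29 and 3.61 CPM in KD, against 1.38, 1.37 and 1.27 CPM in parent. Whether counting used strand is not given in the sources used here, so reads of such loci and of genes that overlap them cannot be told apart. Over 1869 other tested clone-named loci, 61 were higher and 64 lower and had a median log2 fold change of 0.03. That list held 7 of the 8 clone-named members and left out WI2-1896O14.1. With these 7 (higher by the choice) counted in, 3.62% were higher and 3.41% lower, against 9.15% and 12.4% of all tested genes. The higher count among the 1869 was 29 with DESeq2, and 19, 29 and 27 on leaving out KD replicate 1, KD replicate 2 and parent replicate 2. The lower count was 41 without parent replicate 2. RP11-1055B8.7 averaged 83.9 ± 3.199 CPM in KD and 37.8 ± 3.06 CPM in parent (adjusted p by edgeR = 0.00031), and RP11-20O24.4 25.1 ± 0.295 CPM in KD and 39.7 ± 1.21 CPM in parent (0.000552).

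LINC00601, C10orf90 and SOWAHD complete the group. LINC00601, a long intergenic RNA, had 7.02 and 7.81 CPM in KD, against 1.89, 2.53 and 2.60 CPM in parent. C10orf90, also known as FATS, had 4.77 and 5.81 CPM in KD, against 1.76, 1.51 and 1.55 CPM in parent. SOWAHD, an ankyrin repeat protein, had 4.02 and 3.87 CPM in KD, against 1.07, 1.16 and 0.665 CPM in parent. Of 101 other tested LINC-named RNAs, 7 were higher and 12 lower and had a median log2 fold change of -0.04. Including LINC00601 (higher by the choice), 7.84% were higher and 11.8% lower, near the 9.15% and 12.4% of all tested genes. The higher count among the 101 was 4 with no filter or with the replicate block, and 2 with DESeq2 or without parent replicate 2. It was 1 without KD replicate 1, and 3 without KD replicate 2 or parent replicate 3. LINC01059 fell to 4.12 ± 0.722 CPM in KD, against 25.5 ± 1.22 CPM in parent (adjusted p by edgeR = 6.02e-05). LINC01139 was at 0 in KD and averaged 2.62 ± 0.401 CPM in parent (adjusted p by edgeR = 0.000656).

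Chromosomal position was not used in the choice. In the RefSeq gene order of GRCh38.p14, 28 members could be placed, on 18 chromosomes, with at most 3 on any of them. An immediate neighbour among tested genes that also met the conditions was found for 3 members. LINC00601 and C10orf90 are consecutive on chromosome 10, next to ADAM12, a metalloproteinase that was set aside by name. ADAM12 had 13.3 and 10.9 CPM in KD, against 2.20, 1.85 and 2.33 CPM in parent. DOCK1, the next tested gene beyond this run and chosen after its values were seen, averaged 72.7 ± 2.72 CPM in KD and 73.9 ± 0.991 CPM in parent (log2 fold change -0.04 ± 0.0596, SE, edgeR adjusted p = 0.660), so the difference was not detected there. TMEM52B overlaps OLR1 in RefSeq, the scavenger receptor for oxidised LDL that was also set aside. OLR1 had 377 and 343 CPM in KD, against 67.0, 67.0 and 57.3 CPM in parent, and how reads were divided between these genes is uncertain. CLEC2B, the tested gene beside them and likewise chosen, was at 0 in both KD libraries and averaged 2.17 ± 0.306 CPM in parent (adjusted p by edgeR = 0.000911).

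**Figure D5:**
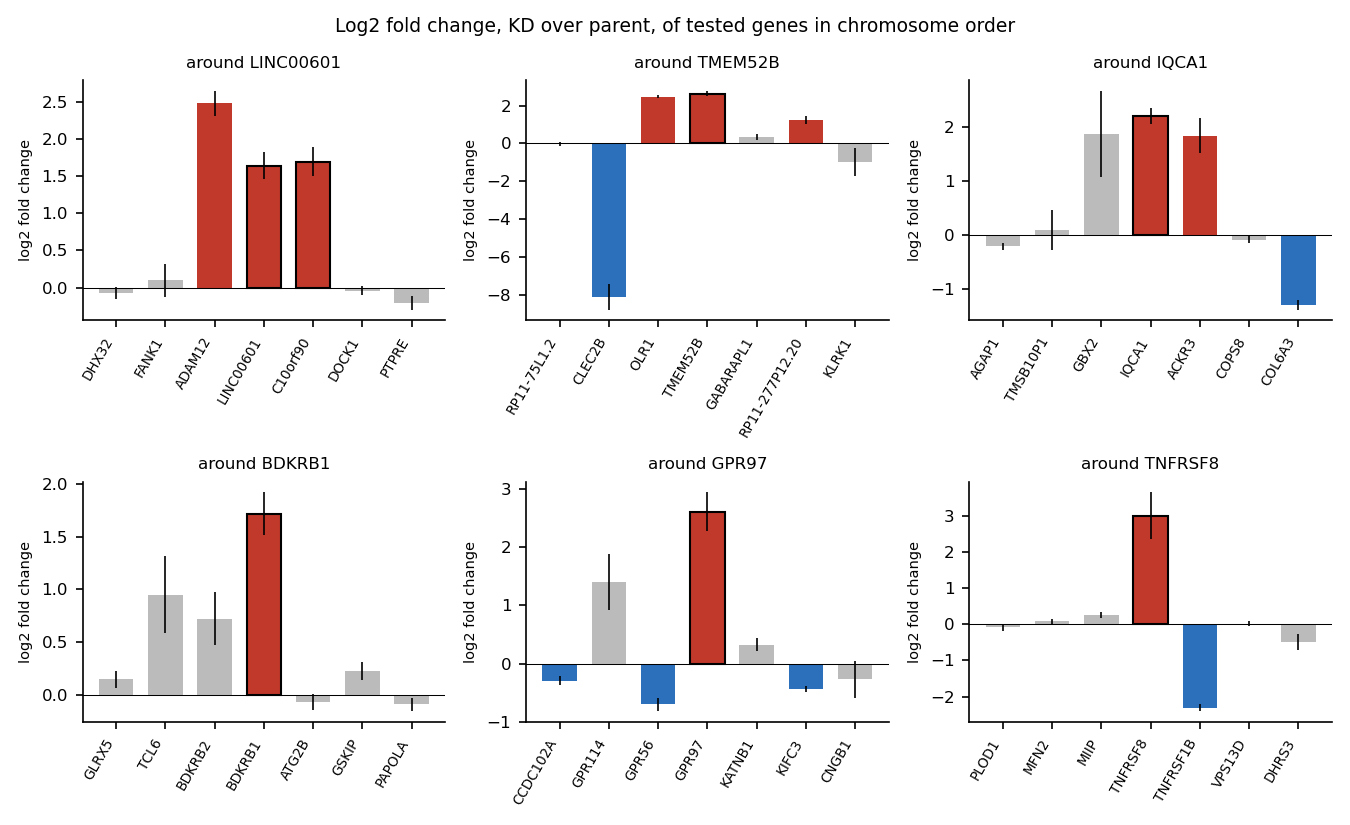
Bars are edgeR log2 fold changes of KD over parent, with SE, for 6 members and the nearest tested genes in RefSeq order. The 6 members were picked after their values were seen. Red bars passed the threshold upwards, blue downwards, grey did not pass, and black outlines mark members. ADAM12, LINC00601 and C10orf90 stand next to each other, TNFRSF8 stands beside the lower TNFRSF1B, and GPR97 beside the lower GPR56.

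Neighbours moved in either direction. Among genes chosen after their values were seen, IQCA1 has ACKR3, an atypical chemokine receptor, as a neighbour. ACKR3 averaged 14.5 ± 3.32 CPM in KD and 3.99 ± 1.79 CPM in parent (log2 fold change 1.84 ± 0.333, edgeR adjusted p = 0.00945; 0.0618 without KD replicate 1). BDKRB1 lies beside BDKRB2, the B2 bradykinin receptor, which averaged 16.1 ± 4.18 CPM in KD and 9.58 ± 2.70 CPM in parent and did not pass the test (edgeR adjusted p = 0.0865), but did with the replicate block (0.0123) and without parent replicate 1 (0.0201). TNFRSF8 lies beside TNFRSF1B, a receptor of tumour necrosis factor, which fell to 4.44 ± 0.203 CPM in KD, against 21.7 ± 0.381 CPM in parent (log2 fold change -2.30 ± 0.0984, edgeR adjusted p = 4.19e-05). GPR97 lies beside GPR56, an adhesion receptor, which fell to 64.6 ± 8.12 CPM in KD, against 104 ± 10.7 CPM in parent (adjusted p by edgeR = 0.00633). Over the 52 immediate neighbours that were neither members nor exceptions, 9 (17.3%) were called higher and 5 (9.62%) lower and had a median log2 fold change of 0.08. Over all 14929 tested genes with a position, 9.53% were higher and 13.1% lower. The 9 higher neighbours became 2, 4 and 5 without KD replicate 1, KD replicate 2 and parent replicate 2, and 14 with the replicate block. The lower count became 8 without parent replicate 1, and 3 with DESeq2, without either KD replicate or without parent replicate 2. Within 3 tested genes on either side, 22 of 160 (13.8%) were higher and 16 (10%) lower. Also chosen after their values were seen, KLHDC10, CEP41, MEST and COPG2 around CPA4 were called higher (log2 fold change 0.20, 0.34, 0.79 and 0.43). On 1 side of DPP4, IFIH1, GCA and FIGN were called lower (-0.36, -1.07 and -0.63). IFIH1 did not pass with the test of DESeq2 (adjusted p = 0.0673).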

How the data were processed

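Of MDA-MB-231 cells, 2 RNA-seq libraries labelled KD were compared with 3 labelled parent. Groups and replicate numbers came from the sample titles. An input and an APE1 chromatin immunoprecipitation sample were not analysed here. The authors deposited expected counts per gene and per transcript, all of them whole. STAR, DESeq2 and hg19 are named in the submitters' processing notes. The tool that counted reads, its annotation and its strand setting: not given in the sources used here. Per the file headers, the authors' own comparison holds the mean of normalised counts (a signal), log2 fold changes, Wald statistics (a score) and p-values. It was used only for the members' log2 fold changes.

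CPM was taken on whole library totals, and SDs are over 2 KD and 3 parent libraries. Genes with low counts were removed by filterByExpr (minimum count 10, minimum total 15), leaving 16198. After TMM scaling, the edgeR 4.0.16 quasi-likelihood test (R 4.3.3) set KD against parent with no further term, which left 3 residual degrees of freedom. Called genes have a Benjamini-Hochberg adjusted p under 0.05 over all tested genes. The code was tested on simulated data. Members and gene lists were chosen with earlier results of these data known. Gene lists were filled by gene symbol, so some hold genes of other function or several copies of a gene. Of 24 gene lists, the 10 that hold members are described. The members given by library were the 12 with the highest KD mean, the 12 with the highest ratio, and those next to the thresholds, and the remaining members were added after their values were seen. From each described list up to 2 called genes with the smallest adjusted p were named; some are not reported here. Other genes are marked as chosen after their values were seen. Of the members, 28 matched a RefSeq name (25 protein-coding genes, 2 long non-coding RNAs and 1 transcribed pseudogene). Promoter sequences are those of RefSeq, GRCh38.p14. Alternatives were the size factors and the test of DESeq2 1.42.0, library totals alone, no filter, other thresholds of the choice, each library left out in turn, and the replicate number as a block.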

Additional observations from a re-analysis of the deposited data

How the results depend on the processing

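Of 16198 tested genes, 1482 were higher and 2003 lower in KD. The counts were 1442 and 2039 with the size factors of DESeq2, 1679 and 1861 with library totals alone, 999 and 1763 with no filter, and 1206 and 1883 with the test of DESeq2. Leaving out 1 library gave 553 to 1413 higher and 1270 to 1970 lower genes. The lowest counts came without KD replicate 1, and the counts were 755 and 1321 without KD replicate 2, and 709 and 1320 without parent replicate 2. A lone KD library is then assumed to vary like the parent libraries. Of the genes in the 24 lists, 687 were called, and 405 to 668 without 1 library, with 405 on leaving out KD replicate 1 and 443 on leaving out parent replicate 2. The groups share replicate numbers 1 and 2 alone. Deviations of same-numbered libraries correlated at 0.0868 and -0.0180. With 2 KD libraries the KD deviations mirror each other, so these values cannot show whether same-numbered libraries shared a batch. With the replicate number as a replicate block, 1704 genes were higher, 2236 lower and 738 of the lists called.

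The conditions of the choice were met by 44 genes. They were met by 27 at 5 CPM or more, 89 at a ratio of 2, 18 at a ratio of 4, 47 at 1 CPM and 53 to 95 without 1 library, the most without KD replicate 2 (95) and parent replicate 1 (72). Of the 35 members, 33 stayed under TMM or DESeq2 scaling (CTD-2532K18.2 and GDF5 did not), 18 at 5 CPM and 11 at a ratio of 4. Over 350 alternative log2 fold changes of members, 13 moved by more than 1 SD, and the lowest was 1.40. None changed sign, which the choice of the members on these same libraries largely fixed in advance. The share of member promoters with G runs was 33.3% within 250 bases before the start and 41.7% with loops of up to 12 bases, against 39.1% and 57.7% of tested genes and 26.3% and 40.6% of all genes in the promoter table. Members with few parent counts set the limit of depth: 6 had at least 1 parent library at 0.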
